A study of Mus musculus with 8 samples.

Results

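miR-126 is the miRNA most closely tied to blood vessel endothelium, and both of its arms were measured on every array. The members are the probes named mmu-miR-126-3p and mmu-miR-126-5p, 2 of the 1135 miRNA probes of the array, each spotted 1 time. Liver RNA came from 4 male C57BL/6N mice on a diet without methionine and choline (MCD), which induces steatohepatitis, and from 4 MCD-fed mice that received metformin, an oral biguanide, at 2.4 mg/day in their drinking water. Diet and metformin both lasted 15 weeks, the mice were 8 weeks old at the start, and all 8 animals were on the MCD diet, so that the only labelled difference between the groups is metformin. Each liver was hybridised to its own 1-colour array. Mice on normal chow are not analysed here.

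Both arms are cut from 1 hairpin. Its gene lies inside Egfl7, a gene of endothelial cells that encodes a secreted protein of the vessel wall, and the hairpin is spliced out of an Egfl7 intron. In endothelial cells the 3p arm represses Spred1 and Pik3r2, inhibitors of the signalling that vascular endothelial growth factor sets off, and the 5p arm represses Dlk1. Deletion of the hairpin in mice gives leaky vessels. In liver, endothelium lines the sinusoids and the larger vessels. In a whole-liver RNA sample, a change in the share of endothelial cells and a change in the miRNA content of each cell cannot be told apart.

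The sequence that defines the 3p arm is shown with 4 others because these are the miRNAs of endothelium and angiogenesis that the results below turn on. Sequences are RefSeq's on GRCm38.p6, 5′ to 3′, with the seed (bases 2 to 8), the part that pairs with target mRNAs, in capitals. Of 6 array names looked up, 5 matched.
miR-126-3p: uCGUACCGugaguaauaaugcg
miR-296-5p: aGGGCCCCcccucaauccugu
miR-20a: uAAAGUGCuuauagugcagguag
miR-17: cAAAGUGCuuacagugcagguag
miR-130a: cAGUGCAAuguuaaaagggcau
The mature 3p arm is at chr2:26591402-26591423 on the plus strand. miR-17 (chr14:115043684-115043706) and miR-20a (chr14:115044183-115044205) lie close together on the plus strand, and miR-130a (chr2:84741116-84741137) and miR-296-5p (chr2:174267093-174267113) are on the minus strand. No other mouse mature miRNA among the 1679 in the RefSeq table has its seed, whereas miR-20a and miR-17 share one with each other and with miR-93, miR-106a, miR-106b, miR-20b and miR-6383. G and C make up 45.5% of the bases of miR-126-3p and 66.7% of those of miR-296-5p. The matching entry for miR-126-5p would be mmu-miR-126a-5p. RefSeq also places a hairpin named Mir126b on the opposite strand of the same stretch, and no probe of the array carries that name.

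The scanner signal of miR-126-3p was 4700, 3475, 4164 and 3913 on the arrays of MCD replicates 1 to 4 and 5439, 4890, 4094 and 4419 on those of metformin replicates 1 to 4. These are median pixel intensities on a linear scale, before any correction. The groups overlapped, since metformin replicate 3 lay below MCD replicates 1 and 3. The MCD mean of 4063 ± 511 and the metformin mean of 4711 ± 585 (SD, n = 4 each) differed by 648 (exact permutation test, two-sided, p = 0.171).

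The scanner signal of miR-126-5p was 577, 538, 695 and 549 in MCD replicates 1 to 4 and 752, 694, 599 and 616 in metformin replicates 1 to 4. MCD replicate 3 stood among the metformin arrays, and the other MCD arrays lay below all of them. The MCD mean of 590 ± 72.1 and the metformin mean of 665 ± 71.1 (SD, n = 4 each) differed by 75.5 (exact permutation test, two-sided, p = 0.200).

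On each of the 8 arrays both arms exceeded the empty spots and the negative control spots. The limit set on the negative control spots, their mean plus 2 SD, was exceeded 11.7 to 18.1 times by miR-126-3p and 1.81 to 2.50 times by miR-126-5p. miR-126-5p therefore had less signal to spare above background. The local background around the probes was also not equal between the groups. Next to the miR-126-3p spot it was 171 to 178 on the MCD arrays and 147 to 157 on the metformin arrays, and next to the miR-126-5p spot 173 to 180 and 149 to 158. Every metformin array was lower (exact permutation test, p = 0.0286, the smallest that 4 arrays against 4 can give). After subtraction of this local background, without scaling, the signal of miR-126-3p was 3888 ± 512 and 4558 ± 585, and that of miR-126-5p 414 ± 74.1 and 512 ± 72.8 (SD, n = 4 each, MCD and metformin). All MCD arrays were in hybridisation cell 1 and all metformin arrays in cell 2 of the scanned files, and the effects of position and of metformin cannot be told apart.

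After background correction and scaling both arms were higher with metformin by a similar amount, but neither difference passed the adjustment for all probes. In log2 units, normalized miR-126-3p was 12.06, 11.71, 11.89 and 11.90 in MCD replicates 1 to 4 and 12.31, 12.23, 12.08 and 12.10 in metformin replicates 1 to 4. Every metformin array was above every MCD array, with MCD replicate 1 at 12.06 only just below metformin replicate 3 at 12.08. The log2 fold change was 0.29 (standard error 0.11, 95% interval 0.05 to 0.53), a fold of 1.23.

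Normalized miR-126-5p was 8.61, 8.58, 8.99 and 8.61 in the MCD arrays and 9.17, 9.11, 8.93 and 8.87 in the metformin arrays. Here the groups overlapped through MCD replicate 3, which was higher than metformin replicates 3 and 4. The log2 fold change was 0.32 (standard error 0.12, 95% interval 0.06 to 0.58), a fold of 1.25. Exact permutation tests gave p = 0.0286 for miR-126-3p and p = 0.0857 for miR-126-5p.

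**Figure D1:**
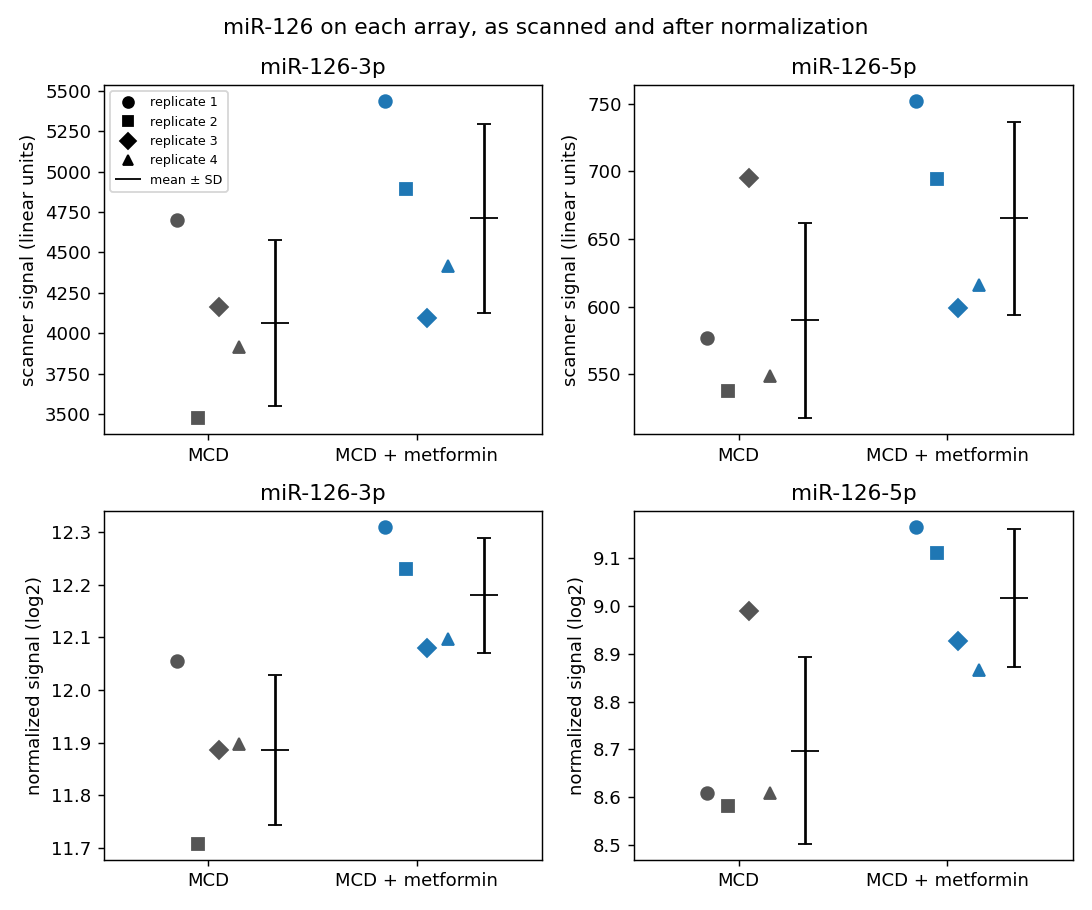
Signal of miR-126-3p (left) and miR-126-5p (right) on each array, as scanned on a linear scale (top) and normalized on a log2 scale (bottom), with axes that do not start at 0. Symbols are replicates and black bars the mean ± SD (n = 4); after normalization every metformin array is above every MCD array for miR-126-3p, and MCD replicate 3 at 8.99 breaks this for miR-126-5p.

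In limma the unadjusted p was 0.0194 for miR-126-3p and 0.0200 for miR-126-5p, and the adjusted p was 0.407 for both. Of the 1070 probes tested, 0 (0%) passed an adjusted p of 0.05, while 68 (6.36%) were higher and 33 (3.08%) lower at an unadjusted p under 0.05. By unadjusted p, the arms ranked 32 and 33 among the probes with a positive log2 fold change. The groups did not overlap, with metformin higher, for 30 probes (2.80%), miR-126-3p among them. The median log2 fold change of all tested probes was 0.03.

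In the deposited value table, which the authors scaled themselves, miR-126-3p was at 4178, 3110, 3801 and 3853 on the MCD arrays and at 4475, 4435, 3979 and 4414 on the metformin arrays. miR-126-5p was at 328, 299, 455 and 331 and at 457, 454, 392 and 408. Both arms overlapped between the groups there, miR-126-3p through MCD replicate 1 and miR-126-5p through MCD replicate 3.

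The size of the difference depended on how the arrays were scaled and how background was removed. With quantile normalization the log2 fold change was 0.13 for miR-126-3p and 0.19 for miR-126-5p, and with plain subtraction of the local background before scaling it was 0.13 and 0.21. Scaling on the probes above the negative control spots, with the full set tested, gave 0.17 and 0.20. In the same order of settings, the unadjusted p (limma) was 0.212, 0.310 and 0.380 for miR-126-3p. For miR-126-5p it was 0.0917, 0.135 and 0.313. The groups no longer overlapped for miR-126-5p when MCD replicate 3 was left out, where its log2 fold change was 0.42 (unadjusted p = 0.00303, adjusted p = 0.233, limma), and those of miR-126-3p overlapped when MCD replicate 4 was left out.

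**Figure D2:**
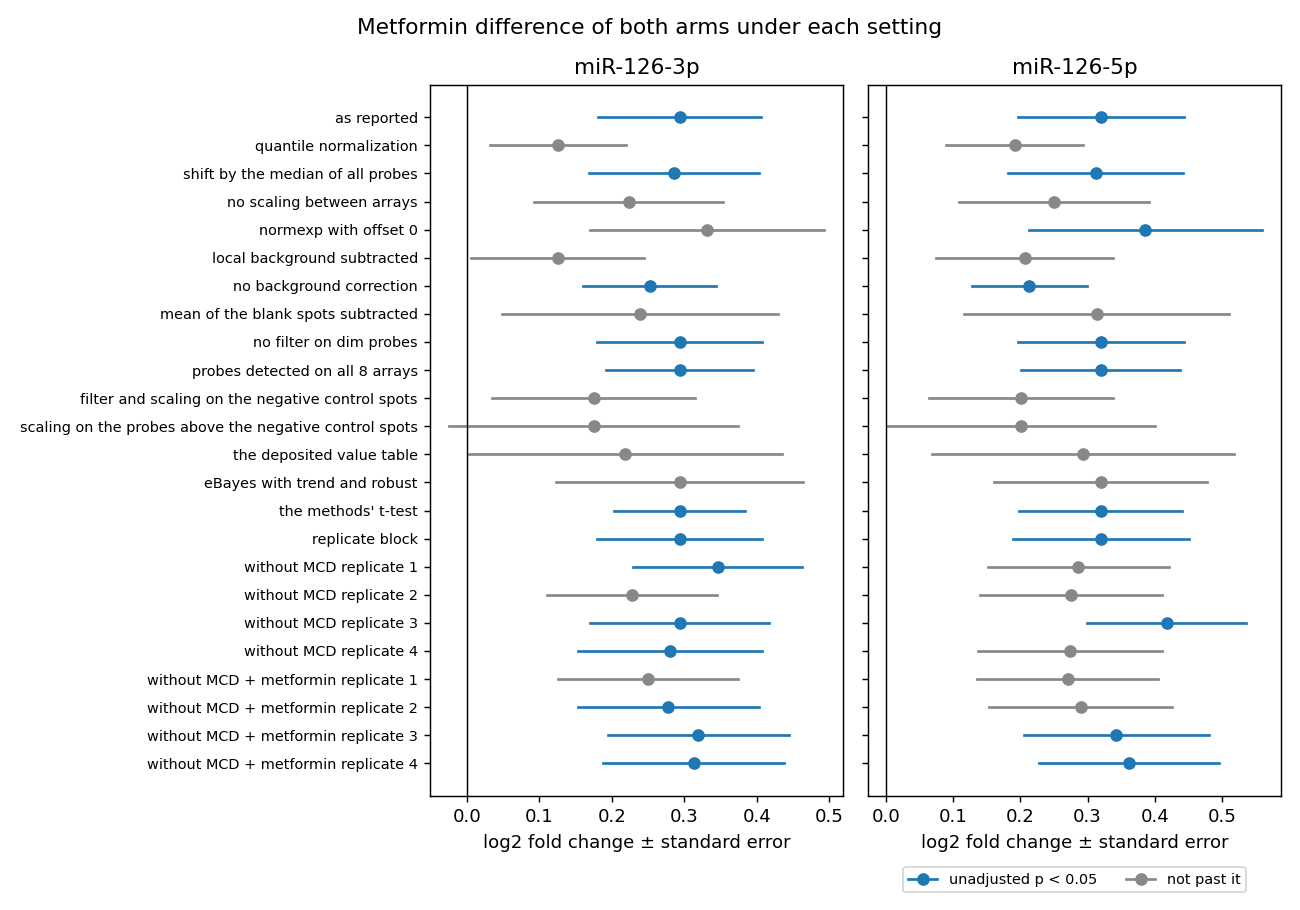
Log2 fold change of miR-126-3p (left) and miR-126-5p (right), MCD + metformin against MCD, as reported (top row) and under 23 other settings, with bars of ± 1 standard error and blue where the unadjusted p was under 0.05. All points are above 0, from 0.13 to 0.35 for miR-126-3p and from 0.19 to 0.42 for miR-126-5p. Settings that change only the filter, the test or the block keep the reported point by construction.

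The arms did not differ detectably in their response. The log2 difference between the 2 probes on the same array, in which any scaling by a constant cancels, was 3.45, 3.13, 2.90 and 3.29 in MCD replicates 1 to 4 and 3.14, 3.12, 3.15 and 3.23 in metformin replicates 1 to 4. The metformin arrays all lay inside the MCD range. The mean difference was 3.19 ± 0.24 on the MCD arrays and 3.16 ± 0.05 on the metformin arrays (SD, n = 4 each). The change of -0.03 (exact permutation test, two-sided, p = 0.857) had a 95% interval, from the same permutation test, of -0.33 to 0.34, so that unequal changes of up to about this size would not have been detectable with 4 arrays a group. The size of the log2 difference itself depends on how strongly each probe binds and says nothing of how much of each arm was present.

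Across the 8 arrays the arms moved together to a limited degree. Pearson's r between their normalized values was 0.74 (exact permutation test, p = 0.0358) and Spearman's rho 0.74 (exact permutation test, p = 0.0458), and in the scanner signals, before normalization, r was 0.78 (exact permutation test, p = 0.0224). This was the only relation between probes that was tested. The test permuted all 8 arrays without regard to group, so that its p does not separate agreement within groups from a shared group difference. Metformin replicates 1 and 2 were the highest of the 8 arrays for both arms and MCD replicate 2 the lowest for both. The 2 arrays farthest from the median of miR-126-3p were MCD replicate 2 and metformin replicate 1, and without them r was 0.47 (exact permutation test, p = 0.354), so that the relation was not held by the other 6 arrays alone. These 2 arrays are also the extremes of miR-126-3p, so leaving them out narrows its range, and leaving out any 1 array other than MCD replicate 1 or 3 likewise left p above 0.05 (exact permutation test). After centring on the group means r was 0.38 over the 8 arrays, a value that was not tested. A group of 4 arrays is too few for an r of its own. Within the MCD group miR-126-3p was highest in replicate 1 and miR-126-5p in replicate 3, and within the metformin group replicates 1 and 2 led for both arms. Without MCD replicate 3, r was 0.88.

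**Figure D3:**
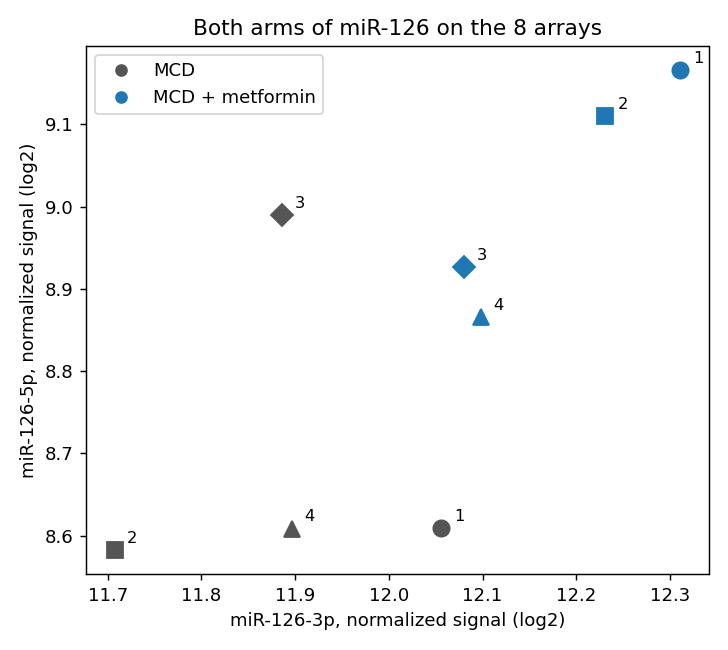
Normalized log2 signal of miR-126-3p (horizontal) against miR-126-5p (vertical) on the 8 arrays, with the replicate number beside each point. Metformin replicates 1 and 2 are at the upper right, MCD replicate 2 at the lower left, and MCD replicate 3 is above the others of its group in miR-126-5p alone.

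For comparison, among hairpins whose 2 probe names are alike but for the arm ending, 9, miR-126 included, had both arms brighter than the negative controls on every array. Hairpins with other forms of name, such as miR-199a and miR-24, were not paired, although their probes were that bright. The r between arms ranged from -0.57 for miR-140 to 0.90 for miR-22, with a median of 0.68, and miR-126 had the fourth highest value. After centring on the group means miR-126 was the fifth of the 9. These values are descriptions over the same 8 arrays, which share their scaling.

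The probes whose normalized values were most like the mean of both arms over the 8 arrays were miR-705 (r = 0.94), miR-367* (0.94), miR-1839-3p (0.93), miR-101b (0.93), miR-331-5p (0.92) and miR-20a (0.91). After centring on the group means these r were between 0.76 and 0.92, the highest being that of miR-1839-3p. In all, 7 of the 1068 other tested probes reached an r of 0.9. With miR-126-3p alone, 53 had a higher r than miR-126-5p had with it. With miR-126-5p alone, 36 had a higher r than miR-126-3p had with it. Of the 6, miR-705, miR-1839-3p, miR-101b and miR-20a were brighter than the negative controls on every array. miR-367* and miR-331-5p exceeded them on 0 arrays, with signals of 243 to 279 and 232 to 267.

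miR-705 had a scanner signal of 367, 314, 389 and 330 in MCD replicates 1 to 4 and 430, 387, 381 and 377 in metformin replicates 1 to 4. As for miR-126, MCD replicate 2 was the lowest array and metformin replicate 1 the highest. The scanner signal of miR-1839-3p, which was not past the unadjusted threshold (log2 fold change 0.22, standard error 0.12, unadjusted p = 0.0795, limma), was 421, 347, 419 and 392 in MCD-fed mice and 448, 441, 375 and 401 with metformin.

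The other miRNAs of endothelium and angiogenesis did not share the difference as a group. Of the 27 listed besides miR-126, all were tested, 12 had a positive and 15 a negative log2 fold change, and their median was -0.03, against 0.03 for all probes. At an unadjusted p under 0.05 from limma 3 were higher and 0 lower, which is 11.1% of the 27 beside 6.36% higher and 3.08% lower among all tested probes, and 0 passed after adjustment over all probes. Of the 27, 17 were brighter than the negative controls on every array. The summed normalized signal of the whole list, miR-126 included, was 16756 to 21907 on the MCD arrays and 17436 to 23991 on the metformin arrays.

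The 3 were miR-296-5p, which raises growth factor receptor levels in endothelial cells of tumours, miR-20a of the miR-17-92 polycistron, and miR-130a, which represses the antiangiogenic homeobox genes Gax and Hoxa5. miR-296-5p had a scanner signal of 450 ± 19.2 in MCD-fed mice and 531 ± 75.4 with metformin (SD, n = 4 each), a log2 fold change of 0.41 (standard error 0.12, adjusted p = 0.274, limma). Its normalized values did not overlap between the groups.

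miR-20a had a scanner signal of 713, 513, 679 and 642 in MCD replicates 1 to 4 and 805, 826, 650 and 686 in metformin replicates 1 to 4, with overlap. Its normalized values did not overlap, and its log2 fold change was 0.37 (standard error 0.13, adjusted p = 0.353, limma). For miR-17, which has the same seed and lies in the same polycistron, the log2 fold change was 0.14 (standard error 0.12, unadjusted p = 0.260, limma). Whether miR-20a and miR-17 differed from each other was not tested.

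miR-130a had a scanner signal of 848, 1082, 1496 and 777 in MCD-fed mice and 1751, 1267, 991 and 1406 with metformin. The groups overlapped, with MCD replicate 3 above 3 of the 4 metformin arrays. Its log2 fold change was 0.53 (standard error 0.20, adjusted p = 0.407, limma).

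Among the others, miR-221 and miR-222, a pair from 1 cluster that lowers Kit in endothelial cells, had log2 fold changes of 0.22 (standard error 0.22) and -0.05 (standard error 0.17). The values were -0.21 for miR-27a (standard error 0.16) and -0.03 for miR-23a, which come from 1 cluster. They were -0.21 for miR-24, 0.10 for miR-27b, -0.06 for miR-23b, 0.08 for miR-92a and 0.23 for miR-100. The intervals of all of these include 0. The number of the whole list past the unadjusted threshold, 5 of 29 with both arms of miR-126, was 3 with quantile normalization (1 higher, 2 lower), 1 without scaling, 2 with plain subtraction (1 higher, 1 lower) and 0 in the deposited table.

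**Figure D4:**
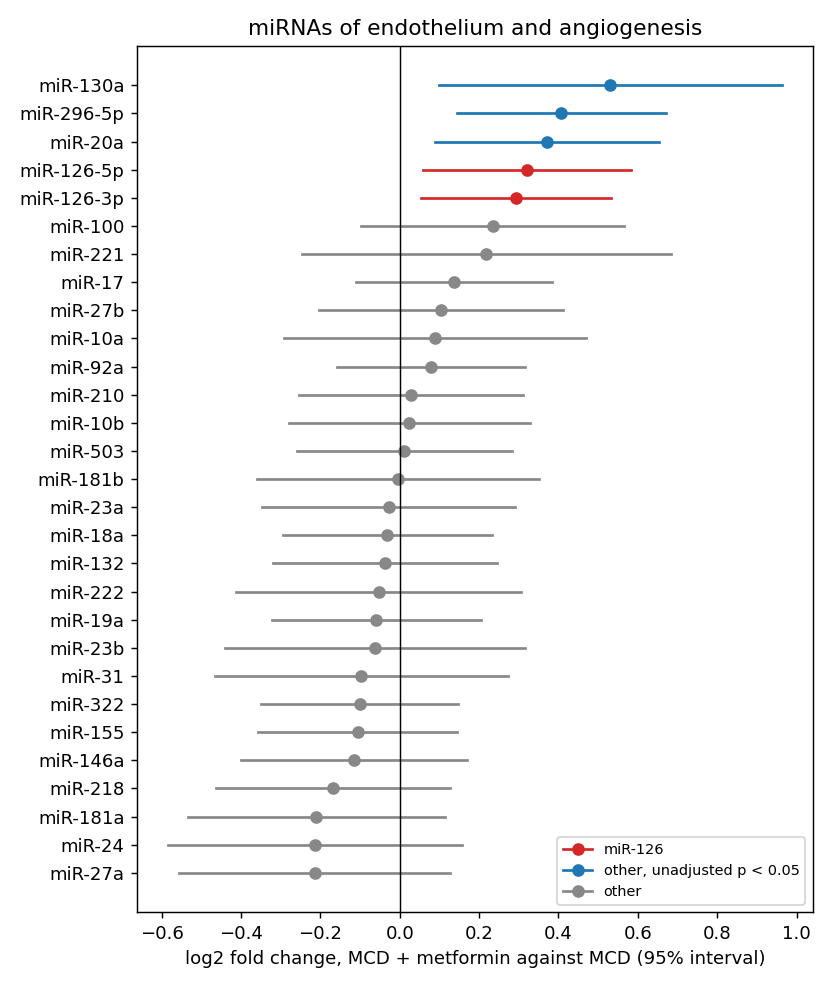
Log2 fold change, MCD + metformin against MCD, of the 29 miRNAs of endothelium and angiogenesis, with 95% intervals from limma. The 2 arms of miR-126 (red), miR-296-5p, miR-20a and miR-130a (blue) have intervals above 0, and the other 24 lie between -0.21 and 0.23 with intervals that include 0.

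Some markers of other liver cells differed between the groups on the same arrays, at the unadjusted threshold. Of all tested probes, 6.36% were higher and 3.08% lower at that threshold, and whether any list exceeded these shares was not tested. The labelled tissue was checked with the hepatocyte miRNAs, which were brighter than the negative controls on every array. All 5 of them (miR-122, miR-192, miR-194, miR-148a and miR-101b) passed upwards in limma without adjustment, with a median log2 fold change of 0.42. The paper had already reported miR-122, miR-194 and miR-101b as upregulated with metformin on these arrays, so that these calls are no independent check. The sum of the 5 normalized signals was 23048 to 25135 on the MCD arrays and 28961 to 38250 on the metformin arrays. This sum is mostly miR-122, whose mean scanner signal on the MCD arrays was 18191, against 3184 for miR-192, the next brightest. The median log2 fold change of the 5 stayed positive under the other scalings and background corrections. However, the number of the 5 that passed was 0 with quantile normalization (median 0.17) and in the deposited table. It was 1 with blank subtraction or scaling on the probes above the negative control spots, and 2 with local background subtracted. The r of miR-101b with the mean of both miR-126 arms, 0.93, was among the 6 highest. Of 6 miRNAs of stellate cells and fibroblasts, miR-21 (log2 fold change -0.70, standard error 0.17) and the joint probe of miR-199a-3p with miR-199b (-0.70, standard error 0.30) were lower and 0 were higher. miR-214 (-0.35), miR-199a-5p (-0.30), miR-143 (-0.08) and miR-145 (0.07) did not pass. The summed signal of the 6 was 5296 to 11046 on the MCD arrays and 4699 to 7022 on the metformin arrays. This sum is weighted towards miR-21. Its mean scanner signal on the MCD arrays was 4504, against 1245 for the joint probe, the next brightest of the 6. Of 5 miRNAs of bile duct epithelium 1 was lower, miR-141 (-0.43, standard error 0.17). It is also 1 of the 21 probes (1.96%) whose groups did not overlap with metformin lower. However, miR-141 exceeded the negative controls on only 2 arrays, and 0 of the 5 passed with the methods' t-test. miR-200a (-0.62) and miR-200b (-0.43), brighter than those controls on every array, overlapped between the groups and did not pass. Of 6 leukocyte miRNAs 1 was lower, miR-223 (-0.60, standard error 0.22), with overlap between the groups. miR-142-5p (-0.28), miR-146a (-0.12), miR-155 (-0.11), miR-150 (-0.01) and miR-142-3p (-0.01) did not pass, and 0 of the 6 passed with the methods' t-test. The summed signal was 1175 to 3001 on the MCD and 804 to 2155 on the metformin arrays for bile duct epithelium, and 1267 to 1911 and 1141 to 1431 for leukocytes, a list that shares miR-155 and miR-146a with the endothelial one. The red blood cell miRNAs miR-144 and miR-451 and the joint probe of miR-486 with miR-3107 had positive values (0.12, 0.14 and 0.10) that did not pass. Only miR-451 was brighter than the negative controls on every array, while miR-144 exceeded them on 0 arrays and the joint probe on 1. None of these lists had a member past an adjusted p of 0.05 from limma. The part of these cells in the difference of miR-126 was not tested.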

How the data were processed

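Total liver RNA was labelled with Hy5 and hybridised to the Toray mouse miRNA Oligo chip. Per the file headers, the authors' deposited scanner values are median pixel intensities of the spots and their surroundings, linear and not normalized. The deposited value table holds intensity too, as a straight line of the scanner signal on each array (largest residual 0.00528) with the median of the listed probes at 45, uncentred. Groups and replicate numbers came from the labels. That the mice were separate animals is stated in the paper's methods.

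The values were background-corrected with normexp (offset 50) in R 4.3.3 and limma 3.58.1, taken to log2 and shifted to equal medians over the 451 probes detected on all 8 arrays. Detection required a signal more than 2 SD over the mean of the 1818 blank spots. lmFit and eBayes were run on the 1070 probes that 4 or more arrays detected (two-sided, unpaired, Benjamini-Hochberg over all 1070), and the functions were tested on simulated data. The offset understates changes of dim probes such as miR-126-5p. From 848 to 1018 probes were detected per array, and from 198 to 284 exceeded the negative control spots. The median pixel intensity of no miRNA probe reached the scanner's upper limit. The number of arrays limits the precision.

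Named were both arms, the 6 probes most correlated with their mean, the members of the endothelial list past the unadjusted threshold, and in each other-cell list up to 2 probes whose groups did not overlap; further names were chosen after their values were seen. The members and lists were chosen with earlier results of these data known. The alternatives were other scalings, background corrections and filters, the deposited table, leaving out each array, blocking on the replicate number, the methods' t-test, and a robust eBayes with an intensity trend. Scaling on the bright probes with the full set tested was added after seeing the data.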

Additional observations from a re-analysis of the deposited data

Results flagged for a closer look

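In miR-126-5p, MCD replicate 3 stood apart from the other arrays of its group, with a normalized log2 value of 8.99 against 8.58 to 8.61 (gap to the nearest of the others 0.93 of the group's range, past Dixon's 95% critical value for 4 samples). Of 6 groups of 4 arrays checked in this way, this was the only 1 past the limit, which chance passes in about 1 group in 20. In miR-126-3p the same array, at 11.89, was inside the range of its group.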

How the results depend on the processing

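The log2 fold changes of both arms stayed positive under all 23 alternatives, with the adjusted p from 0.359 to 0.996 for miR-126-3p and from 0.233 to 0.996 for miR-126-5p. Alternatives that change only the filter, the test or the block keep the reported log2 fold change by construction, so their sign is no check. The unadjusted p was under 0.05 in 12 and 10 of the 23, and the groups did not overlap in 14 and 1. Leaving out 1 array gave 0.23 to 0.35 for miR-126-3p, whose unadjusted call was lost without MCD replicate 2 or metformin replicate 1, and 0.27 to 0.42 for miR-126-5p, whose call was lost without MCD replicate 1, 2 or 4 or metformin replicate 1 or 2. The difference between the arms, -0.03, was 0.038 without background correction and ranged from -0.12 to 0.059 when 1 array was left out, positive without MCD replicate 1 or 4 (0.0066). The arm correlation fell short of the threshold with quantile normalization (0.46), local (0.58) or blank (0.58) background subtracted and the deposited table (0.67). The correlation also fell short with filter and scaling, or scaling alone, on the probes above the negative control spots (0.56 in each). It was 0.63 to 0.88 with 1 array left out, past the threshold only without MCD replicate 1 or 3. The probes past the unadjusted threshold (68 higher, 33 lower) became 56 among the 451 detected on all arrays and 61 (29 and 32) in the deposited table. With filter and scaling on the probes above the negative control spots they became 28 (5 and 23), and with that scaling alone 48 (8 and 40). The scaling alone, an alternative chosen after seeing the data, moved the median of all probes by -0.12. The split was 43 and 50 with quantile normalization, 24 and 60 without scaling, 41 and 39 without background correction and 37 and 43 with blank subtraction. Leaving out 1 array gave 81 to 100. The 0 probes past the adjusted threshold became 5 with filter and scaling on the probes above the negative control spots and 10 with that scaling alone. They became 0 to 9 with 1 array left out, 9 without MCD replicate 4. Neither arm was among them. Of the endothelial list, 3 rather than 5 probes passed with quantile normalization, 1 without scaling, 2 with local and 0 with blank subtraction, 4 (1 higher, 3 lower, of 22 tested) with filter and scaling on the negative control spots, 1 with that scaling alone, 0 in the deposited table, 3 with eBayes trend and robust, and 2 to 6 with 1 array left out (2 without MCD replicate 2, 3 without MCD replicate 1 or metformin replicate 1). The cause of these changes was not tested. The methods' t-test called 83 probes unadjusted and 0 after adjustment. Deviations of same-numbered arrays (r from -0.30 to 0.03) had no reference and do not decide pairing. The fit with the replicate number as a block gave 0.29 (adjusted p = 0.505, limma) and 0.32 (adjusted p = 0.570, limma) for the arms and 87 probes unadjusted.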
